A study of Mus musculus with 10 samples.

Results

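The genes described here encode cadherins, protocadherins, semaphorins, plexins, ephrins, Eph receptors, netrins, Unc5 and Robo receptors, Slits, contactins, neuroligins, neurexins and leucine-rich repeat proteins of the Lrrtm and Lrrn families. They were chosen by gene symbol alone from a table of RNA synthesis, processing and degradation rates, and 124 of its 8590 genes matched. The largest family was that of the protocadherins, and 1 match, Unc50, shares only the first letters of its symbol with the Unc5 netrin receptors and encodes a Golgi protein. Unc50 was kept by the rule and is part of the counts over all members tested, but of no family or role.

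The rates came from cultured mouse cortical neurons of 2 genotypes, wild type and Fmr1-KO, both given the strain FVB.129P2-Pde6b+ Tyrc-ch/AntJ in the labels. Fmr1 encodes FMRP, an RNA-binding protein whose loss causes fragile X syndrome. All neurons came from cortices of embryonic day 18 and were used after 14 days in vitro. They were given 200 µM 5-ethynyluridine (5-EU), a uridine analogue that enters newly made RNA, for 20 or 60 min. Each genotype had 1 labelled library per labelling time, 2 input libraries without enrichment and 1 pull-down of unlabelled RNA, 10 samples in all. The rates are listed for the 4 labelled libraries, so the n of 2 per genotype is 1 library at each labelling time. The labels do not say whether these came from separate cultures, and p-values measure only the spread between such libraries.

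Guidance molecules steer growing axons and dendrites. Slits, netrins, semaphorins and ephrins are ligands. Their receptors are the Robo proteins, the Unc5 proteins (for netrins), the plexins and the Eph receptors. Classical cadherins and protocadherins join cells through calcium-dependent contacts. Clustered protocadherins give single neurons distinct surface identities, while contactins act at axons and nodes of Ranvier. Neuroligins, neurexins and Lrrtm proteins organise synapses. A degradation rate describes how fast mature RNA is lost, a synthesis rate how fast it is made, and a processing rate how fast pre-mRNA is turned into mature RNA.

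Fmr1 itself had degradation rates of 0.0774 and 0.0672 in the wild-type libraries at 20 and 60 min and of 2.58 and 2.66 in the knockout libraries. Its log2 change was 5.18 ± 0.32 (SE, n = 2 per genotype, limma adjusted p = 0.0235). For synthesis, Fmr1 read 0.810 and 0.692 in the wild-type and 2.06 and 1.56 in the knockout libraries, so a transcript from the targeted locus was still measured. Of the fixed marker lists, 2 of 10 neuron genes were in the rate table (Rbfox3 and Gad2), with 3 of 7 astrocyte, 5 of 8 oligodendrocyte-lineage, 0 of 5 microglial and 0 of 4 endothelial and mural genes. Just 1 gene of each of the first 3 lists had all 4 synthesis rates, so cell makeup could not be compared between the genotypes and its part in the results below was not tested. Over all genes tested for degradation, the median log2 change, knockout minus wild type, was 0.65. Centring each library on its median removed a shift of 0.86, after which the median change over all genes was −0.20.

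Some transcripts of these genes carried short 3′ UTR elements known from RNA decay. The Pumilio element, the letters TGTANATA, is bound by PUM proteins. The AU-rich nonamer, TTATTTATT, belongs to the elements that many decay factors bind. The sites below are shown as examples from members described in the results: genes that rose, Efnb2 with a high wild-type rate, and Unc5d with lower knockout values. They are from GENCODE M21 gene models on GRCm38, written 5′ to 3′ along the transcript with the element in capitals.
Sema6c, AU-rich nonamer, chr3:95173371-95173400, plus strand: ctcgcctcggtTTATTTATTgacttgtctt
Epha8, Pumilio element, chr4:136929929-136929958, minus strand: ccaccagggtaTGTAAATAtctttttttct
Sema6b, Pumilio element, chr17:56123229-56123258, minus strand: gcagacgccccTGTAAATAcagccctgggg
Cntn2, Pumilio element, chr1:132513020-132513049, minus strand: caacgtgagctTGTAAATAgaaaaaaaaaa
Plxnc1, Pumilio element, chr10:94792960-94792989, minus strand: gggaacctttcTGTAAATAgagctgaagtg
Plxna1, AU-rich nonamer, chr6:89318633-89318662, minus strand: gcatgttcccgTTATTTATTccccgcctcc
Robo1, Pumilio element, chr16:73044942-73044971, plus strand: ggtagaagcatTGTAAATAtatactctttg
Efnb2, Pumilio element, chr8:8617957-8617986, minus strand: agtgaagacgcTGTAAATAggttcagatct
Unc5d, AU-rich nonamer, chr8:28650746-28650775, minus strand: ttagactcaagTTATTTATTcatccttgtg

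On the transcript strand, 38 of the 69 members tested for degradation (55.1%) held a Pumilio element in the 3′ UTR, against 28.4% of 5556 tested genes with a coding model. The nonamer was in 11 of the 69 members (15.9%) and in 8.62% of those genes. Member 3′ UTRs were longer, with a median of 1464 nt against 1224 nt. Among 3′ UTRs of 1000 to 2000 nt, the Pumilio element was in 10 of 21 members (47.6%) and in 29.4% of 1370 genes. Among those of 2000 to 4000 nt it was in 15 of 18 members (83.3%) and in 43.2% of 1259 genes. Among those of 500 to 1000 nt the shares were close, 3 of 15 members (20.0%) and 18.4% of 1064 genes. The nonamer was in 2 of 15, 1 of 21 and 3 of 18 members in these 3 classes from short to long, and in 5.73%, 6.57% and 12.5% of genes. These shares describe letters, not bound sites, and were not tested.

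Members lacked rates more often than other genes, and nearly all of that lay in the clustered protocadherins. Degradation rates were listed for 92 and 93 members in the wild-type libraries at 20 and 60 min and for 78 and 73 in the knockout libraries. All 4 rates were present for 69 of 124 members (55.6%) and for 66.5% of all genes, and none for 30 members (24.2%) and 4.49% of all genes. Those 30 were all 8 Pcdha genes, 21 of 22 Pcdhg genes and Slit1, a secreted midline repellent. Pcdha and Pcdhg transcripts join a variable exon to constant exons that the genes of a cluster share. In the gene models, the clustered genes without a rate that matched a model shared from 31.5% (Pcdhgb5) to 100% (Pcdhga10) of their exonic bases with other genes, and Slit1 shared 0%. The part of this sharing in the missing rates was not tested. Pcdhga9, which shared 37.9%, was the listed exception, with degradation rates at 60 min alone, 0.0866 in wild type and 0.333 in knockout.

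The 15 Pcdhb genes, which share no constant exon, behaved differently in the table. All 15 had 4 synthesis rates and 9 had 4 degradation rates. None had a processing rate, and each is a single-exon gene in the annotation.

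Degradation rates in both wild-type libraries and neither knockout library were found for 13 members (10.5%), and for 1546 of all 8590 genes. They were Cdh6, Epha6, Ephb1, Nlgn1, Pcdh15, Sema3a, Sema3c, Sema4a, Sema5b, Pcdhb5, Pcdhb9, Pcdhb17 and Pcdhb18. The converse held for Lrrtm2, a synaptic organiser, with knockout degradation rates of 0.233 and 0.413. A missing value may be a failed estimate, and these 14 members entered no test of degradation.

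**Figure D1:**
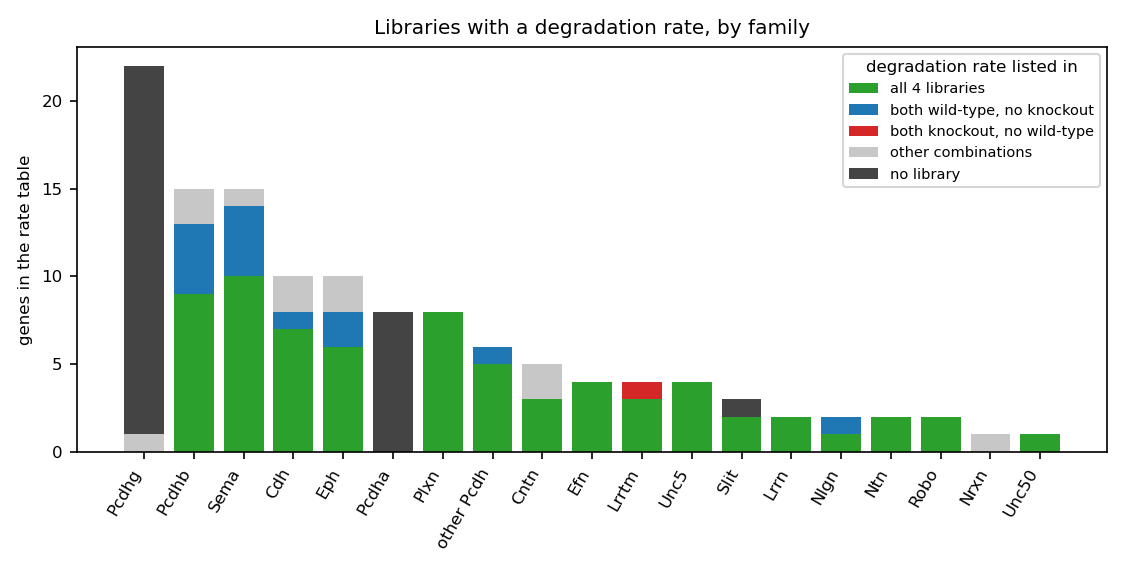
Number of genes per family (bars) by the labelled libraries in which a degradation rate above 0 was listed (colours). Pcdha and nearly all Pcdhg genes had no rate, whereas all 8 plexins had rates in all 4 libraries.

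The comparison of genotypes asks whether loss of Fmr1 altered how fast these RNAs were made, processed or lost. For degradation, 21 of the 69 members tested rose in the knockout and 0 fell (limma on log2 rates, Benjamini-Hochberg adjusted p under 0.05 over all 5716 genes tested). Over all genes 23.1% passed, 20.5% higher and 2.57% lower, beside 30.4% of the members higher and 0 lower. The calls ran from Cdh18, at a 2.71-fold higher rate, to Sema6c, at 22.5-fold. The median change of the 69 members was 0.75 on the log2 scale, close to the 0.65 of all genes. It was 0.66 without Unc50, and 20 of the other 68 members rose.

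Both knockout rates lay above both wild-type rates for 37 of the 69 members and below them for 6, against 52.6% and 16.5% of all genes. The groups overlapped for the other 26. The wild-type rates are not 2 independent measurements: synthesis divided by degradation was equal between 20 and 60 min, within 0.001 on the log2 scale, for 63 of the 69 members. In the knockout that held for 0 of 69. The number of calls fell whichever library was left out.

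With labelling time as a block, 31 members passed, 28 higher and 3 lower (Sema5a, Cntn3 and Unc5d). The share of all genes rose to 48.0%, with 2183 of 5716 genes higher and 558 lower. The 31 included all 21. After library centring 2 passed, Sema6c and Epha8 (1.61% of all genes). With centring and block together 12 members were higher and 9 lower, and 12 of the 21 were among these 21. In that fit 36.2% of all genes passed, 792 higher and 1278 lower. In the authors' deposited table, 28 of 76 members had adjusted p under 0.05, 27 higher and 1 lower (Ephb6), against 36.3% of all its genes. These 28 included all 21.

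**Figure D2:**
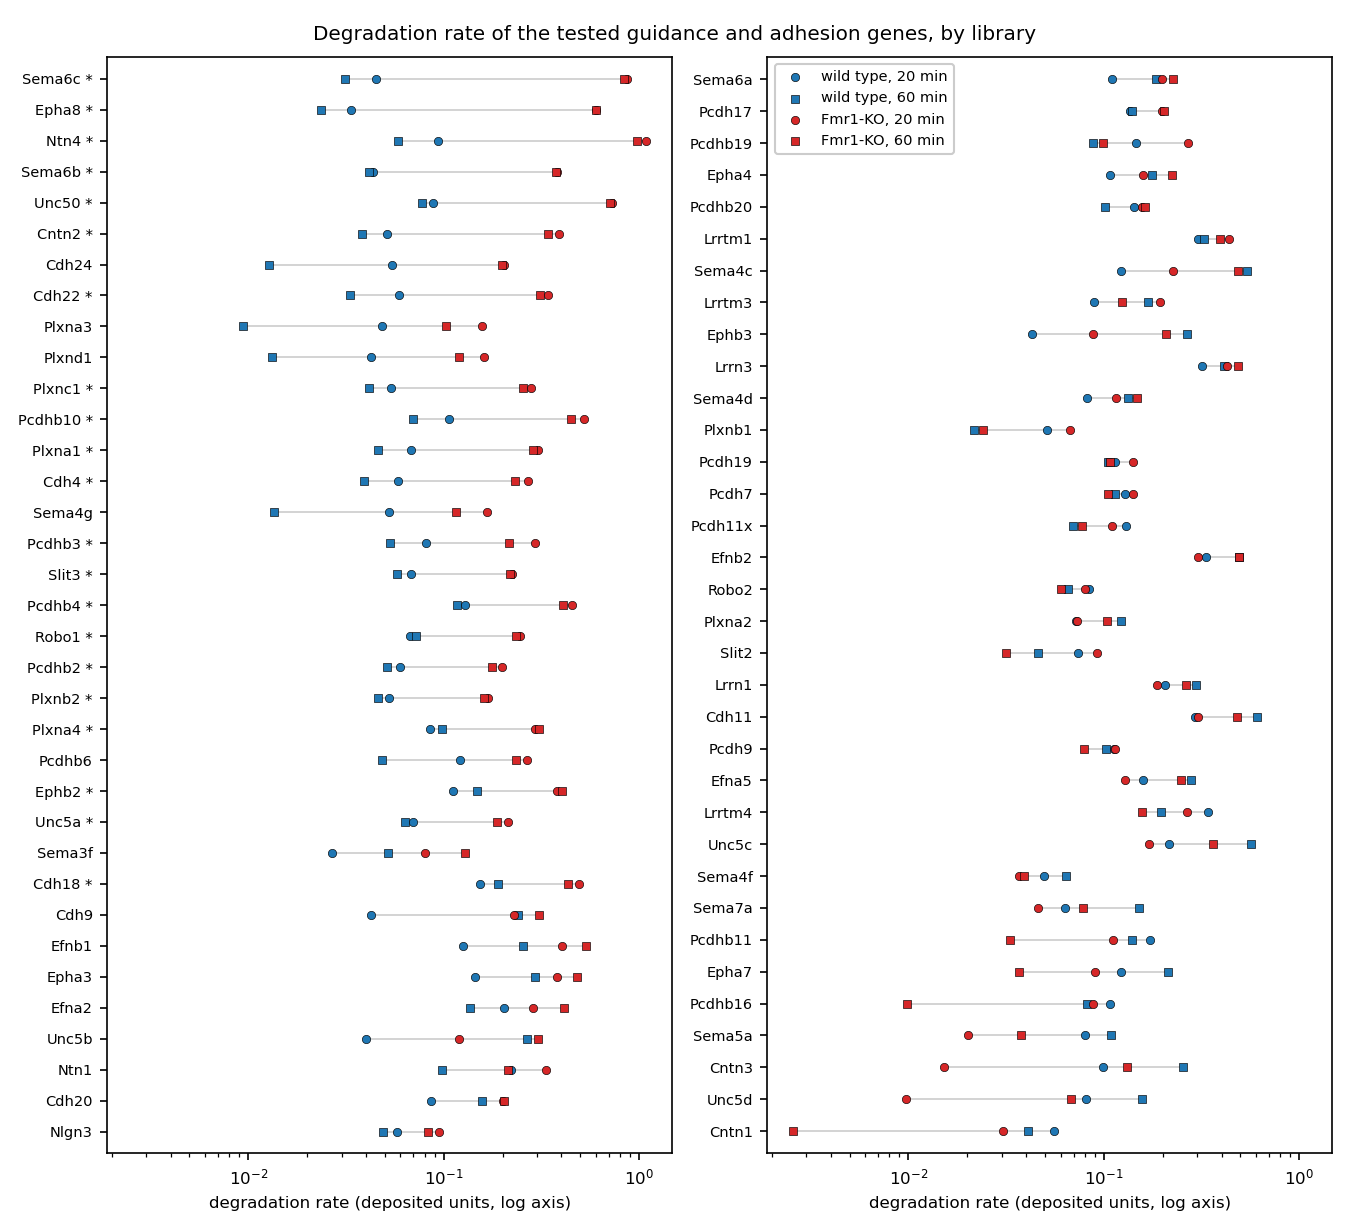
Degradation rate of each of the 69 members with rates in all 4 labelled libraries (x axis, deposited units, log scale), ordered by log2 change from Sema6c to Cntn1. Circles are 20 min, squares 60 min, blue wild type and red knockout, and an asterisk marks the 21 members with adjusted p under 0.05, whose knockout points lie right of both wild-type points.

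Among the ligands, 4 of 18 tested rose (Sema6c, Sema6b, Ntn4 and Slit3), close to the 20.5% of all genes called higher. The median log2 change of the 18 was 0.72, and −0.14 after library centring, beside −0.20 over all genes. Centring left 1 call, beside 1.61% of all genes. With block and centring 3 ligands were higher and 4 lower, beside 792 and 1278 of all 5716 genes. Semaphorins signal mostly through plexins, and those of class 6 are membrane-bound. Sema6c had degradation rates of 0.0451 and 0.0314 in wild type at 20 and 60 min and of 0.862 and 0.834 in knockout. The knockout values were far above both wild-type values, with a log2 change of 4.49 ± 0.36 (SE, n = 2 per genotype, limma adjusted p = 0.0235). Sema6b went from 0.0433 and 0.0413 to 0.380 and 0.375, a log2 change of 3.16 ± 0.31 (limma adjusted p = 0.0235). The third class 6 gene tested, Sema6a, had 0.111 and 0.184 in wild type and 0.199 and 0.226 in knockout, without overlap, and its log2 change of 0.57 ± 0.40 did not pass (limma adjusted p = 0.331).

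The other 7 semaphorins tested did not pass. Of these, Sema4g, Sema3f and Sema5a passed with labelling time as a block. Sema4g read 0.0527 and 0.0135 in wild type and 0.167 and 0.115 in knockout (limma adjusted p = 0.0857, and 0.0220 with the block). Sema3f, a secreted repellent, read 0.0269 and 0.0521 in wild type and 0.0800 and 0.129 in knockout (limma adjusted p = 0.104, and 0.0231 with the block). Sema5a, a transmembrane semaphorin with attractive and repulsive actions, read 0.0801 and 0.108 in wild type and 0.0201 and 0.0378 in knockout. Both knockout values were lower, with a log2 change of −1.76 ± 0.46 (limma adjusted p = 0.0598, and 0.0181 with labelling time as a block). Sema6b and Sema6c thus had changes of the opposite sign to Sema5a at both labelling times. The median of the 10 semaphorins was 0.47 on the log2 scale and −0.39 after library centring.

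Ntn4, a netrin of basement membranes, had rates of 0.0929 and 0.0584 in wild type and 1.09 and 0.976 in knockout. These 14.0-fold higher rates gave a log2 change of 3.81 ± 0.39 (limma adjusted p = 0.0235). Ntn1, the founding netrin attractant, had 0.222 and 0.0975 in wild type and 0.334 and 0.214 in knockout, and its groups overlapped.

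Slit3 read 0.0677 and 0.0579 in wild type and 0.225 and 0.218 in knockout, a log2 change of 1.82 ± 0.32 (limma adjusted p = 0.0290). Slit2 read 0.0739 and 0.0460 in wild type and 0.0924 and 0.0314 in knockout, so the wild-type values lay between the knockout values. Its log2 change was −0.11 ± 0.65. The difference between Slit3 and Slit2 was not tested.

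None of the 4 ephrins passed. Efnb2, a membrane ligand of EphB receptors, had one of the 3 highest wild-type rates of the members tested by the mean of the log2 rates, 0.333 and 0.490, and 0.304 and 0.489 in knockout. The time points differed more than the genotypes for Efnb2. Efnb1 read 0.126 and 0.253 in wild type and 0.404 and 0.537 in knockout, with a log2 change of 1.38 ± 0.48 (limma adjusted p = 0.103, and 0.0303 with the block).

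Among the receptors, 8 of 20 rose and 0 fell, beside 20.5% of all genes higher and 2.57% lower. Their median log2 change was 1.32, and 0.47 after library centring, beside −0.20 over all genes. Centring left 1 call, beside 1.61% of all genes. With block and centring 3 receptors were higher and 2 lower, beside 792 and 1278 of all 5716 genes. Plexins, the semaphorin receptors, stood at the upper end: 7 of 8 had a log2 change above 0 and 4 passed, Plxnc1, Plxna1, Plxnb2 and Plxna4. Their median of 2.07 was 1.21 after centring. Plxnc1, a receptor of Sema7a, had rates of 0.0540 and 0.0416 in wild type and 0.281 and 0.255 in knockout. Its log2 change was 2.50 ± 0.34 (limma adjusted p = 0.0235).

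Plxna1 read 0.0678 and 0.0461 in wild type and 0.303 and 0.285 in knockout, 5.25-fold higher. In the gene models 10.7% of its exonic bases are shared with an antisense gene, and whether counting used strand is not given in the sources used here. Plxna4 went from 0.0845 and 0.0985 to 0.292 and 0.306, and Plxnb2 from 0.0524 and 0.0462 to 0.168 and 0.160. All 3 had knockout rates clear of the wild-type rates at both times.

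Plxna3 and Plxnd1 had, with Cdh24, the lowest wild-type degradation rates of the members tested by the mean of the log2 rates. Plxna3 read 0.0484 and 0.00939 in wild type and 0.156 and 0.103 in knockout, with a log2 change of 2.57 ± 0.88 (limma adjusted p = 0.0999, and 0.0246 with the block). Plxnd1 read 0.0424 and 0.0132, then 0.161 and 0.120, and passed likewise with the block alone (limma adjusted p = 0.0172). Plxna2, a receptor of class 6 semaphorins, read 0.0722 and 0.122 in wild type and 0.0733 and 0.103 in knockout, with a log2 change of −0.11 ± 0.44. It stood apart from the other 3 A-class plexins, a difference that was not tested.

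Among Eph receptors, 2 of 6 rose. Epha8 read 0.0333 and 0.0236 in wild type and 0.602 at both times in knockout, a log2 change of 4.42 ± 0.35 (limma adjusted p = 0.0235). Ephb2, which acts in axon guidance and at excitatory synapses, read 0.112 and 0.148 in wild type and 0.381 and 0.402 in knockout. Its log2 change was 1.61 ± 0.34 (limma adjusted p = 0.0403). Epha7 leaned the other way, with 0.122 and 0.213 in wild type and 0.0901 and 0.0369 in knockout, and did not pass (limma adjusted p = 0.136). The family median, 0.75, was −0.10 after library centring, beside −0.20 over all genes.

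Robo1 rose and Robo2, its close relative among the Slit receptors, did not pass. Robo1 read 0.0672 and 0.0723 in wild type and 0.245 and 0.234 in knockout, 3.43-fold higher (limma adjusted p = 0.0290). Robo2 read 0.0844 and 0.0656 in wild type and 0.0799 and 0.0602 in knockout, with a log2 change of −0.10 ± 0.36. Among their ligands, Slit3 had likewise risen and Slit2 had not passed. The difference between Robo1 and Robo2 was not tested.

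Of the 4 Unc5 receptors, Unc5a rose, from 0.0695 and 0.0633 to 0.212 and 0.186, a log2 change of 1.58 ± 0.32 (limma adjusted p = 0.0368). Unc5d read 0.0813 and 0.156 in wild type and 0.00976 and 0.0682 in knockout, lower in both knockout libraries. Its log2 change of −2.13 ± 1.05 did not pass (limma adjusted p = 0.197, and 0.0392 with the block). In the authors' deposited table the log2 change of Unc5d was −0.43 (limma adjusted p = 0.587). Unc5c, at −0.49, and Unc5b, at 0.88, did not pass either. Unc50 rose from 0.0879 and 0.0774 to 0.726 and 0.711.

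**Figure D3:**
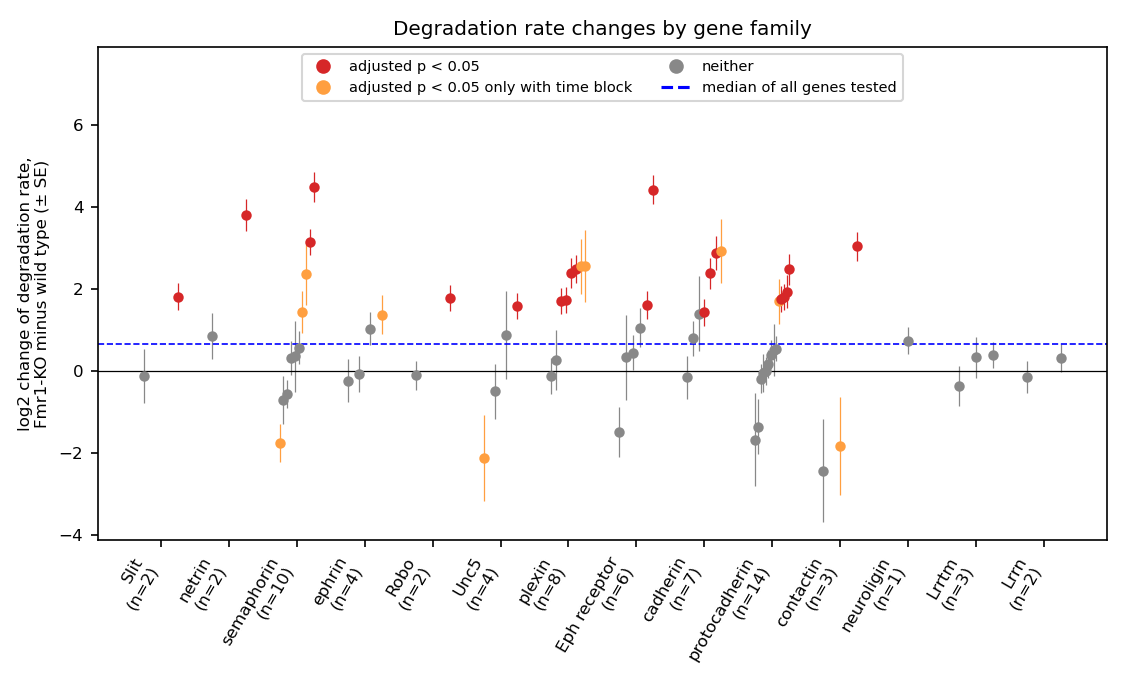
Log2 change of the degradation rate (y axis, knockout minus wild type, with SE) for each tested member by family, Unc50 left out. Red points passed at adjusted p 0.05, orange points passed with labelling time as a block alone, and the dashed line is the median of all genes tested, 0.65. Most plexin points lie above that line, and the lowest points here are Cntn1 and Unc5d, which are at −0.76 and −0.43 in the authors' deposited table.

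Among the adhesion genes, 8 of 24 rose, beside 20.5% of all genes: Cdh22, Cdh4, Cdh18, Pcdhb10, Pcdhb3, Pcdhb4, Pcdhb2 and Cntn2. The median log2 change of the 24 was 0.67, and −0.18 after centring, beside −0.20 over all genes. Centring left 0 calls, beside 1.61% of all genes. With block and centring 5 were higher and 2 lower, beside 792 and 1278 of all 5716 genes. Cadherins had 3 calls of 7 and a median of 1.44 (0.58 after centring). Cdh22 read 0.0588 and 0.0333 in wild type and 0.340 and 0.312 in knockout, a log2 change of 2.88 ± 0.42 (limma adjusted p = 0.0236). Cdh4, or R-cadherin, went from 0.0586 and 0.0389 to 0.271 and 0.231, 5.24-fold higher. Cdh18 went from 0.153 and 0.189 to 0.494 and 0.431.

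Cdh24 read 0.0543 and 0.0127 in wild type and 0.203 and 0.199 in knockout. Its change, 2.93 ± 0.77 on the log2 scale, did not pass (limma adjusted p = 0.0602, and 0.0242 with the block). Cdh11, a mesenchymal and neuronal cadherin, was among the 3 tested members with the highest wild-type rates on that scale, 0.293 and 0.606, beside 0.302 and 0.480 in knockout. Its values moved more between labelling times than between genotypes.

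The ranges of change of Pcdhb genes and non-clustered protocadherins overlapped, and no Pcdha or Pcdhg gene could be tested. Of the 9 Pcdhb genes tested 4 rose, beside 20.5% of all genes, and the median was 1.71 (0.85 after centring). Of the 5 non-clustered protocadherins 0 passed, too few to set against that share, and their median was 0.01. Pcdhb10 read 0.106 and 0.0698 in wild type and 0.524 and 0.446 in knockout, a log2 change of 2.49 ± 0.38 (limma adjusted p = 0.0248). Pcdhb4 went from 0.129 and 0.116 to 0.455 and 0.410. Pcdhb6 passed with the block alone (limma adjusted p = 0.0880, and 0.0320 with the block). Pcdhb11 and Pcdhb16 leaned down, with log2 changes of −1.35 ± 0.68 and −1.67 ± 1.12 that did not pass. That of Pcdhb16 was −0.28 at 20 min and −3.05 at 60 min, and −0.25 in the authors' deposited table (limma adjusted p = 0.708). Pcdhb genes are close copies of each other, and how reads were split among them is not given in the sources used here. Pcdh7, Pcdh9, Pcdh11x, Pcdh17 and Pcdh19 had log2 changes from −0.18 to 0.55. The difference between the kinds was not tested.

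Contactins lay on both sides of 0. Cntn2, or TAG-1, an axonal contactin, read 0.0511 and 0.0382 in wild type and 0.388 and 0.343 in knockout, a log2 change of 3.04 ± 0.35 (limma adjusted p = 0.0235). Cntn1 read 0.0557 and 0.0409 in wild type and 0.0304 and 0.00257 in knockout, the lowest single rate among the 69 members tested. Its log2 change of −2.43 ± 1.26 did not pass (limma adjusted p = 0.213). It was −0.88 at 20 min and −3.99 at 60 min, and −0.76 in the authors' deposited table (limma adjusted p = 0.266). Cntn3 read 0.0994 and 0.253 in wild type and 0.0153 and 0.131 in knockout, so its groups overlapped, and its −1.83 ± 1.19 passed with the block alone (limma adjusted p = 0.0489).

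None of the 6 neuroligin, Lrrtm and Lrrn genes tested passed. Lrrtm1, Lrrtm3 and Lrrtm4, postsynaptic partners of neurexins, had log2 changes of 0.40, 0.34 and −0.35. Nlgn3, a neuroligin, had 0.0575 and 0.0489 in wild type and 0.0947 and 0.0835 in knockout, a change of 0.75 ± 0.33 (limma adjusted p = 0.158). In the gene models Nlgn3 shares 41.2% of its exonic bases with another gene on its strand and Lrrtm4 shares 25.1% with an antisense gene. Lrrn3 had high wild-type rates of 0.317 and 0.414 and read 0.425 and 0.488 in knockout. Its direction, 0.33 on the log2 scale, turned to −0.53 after library centring.

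Partners outside these families, from lists of known pathway genes, were tested in the same fit. Of 30 co-receptors and other adhesion molecules, 6 rose and 0 fell, close to the 20.5% of all genes that were called higher, with a median log2 change of 1.10 (0.24 after centring). With the block 17 were higher and 1 lower, after centring 0 passed, and with both 3 were higher and 6 lower. Over all 5716 genes, 2183 were higher and 558 lower with the block. After centring these counts were 32 and 60, and with both 792 and 1278. Celsr2, an atypical cadherin of planar polarity, read 0.0512 and 0.0161 in wild type and 0.357 and 0.314 in knockout. Dscaml1, an adhesion molecule of the immunoglobulin family, read 0.0636 and 0.0820 in wild type and 0.341 and 0.361 in knockout. Of 19 intracellular partners, 5 rose and 0 fell, with a median of 0.75 (−0.11 after centring). With the block 7 were higher and 1 lower, after centring 0 passed, and with both 1 was higher and 2 lower. Farp2, an exchange factor in the Sema3a response, read 0.110 and 0.0642 in wild type and 0.760 and 0.705 in knockout. Over all genes, 1174 of the 1321 called were higher in knockout.

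Synthesis rates gave a different picture, with no call in either direction. Of 76 members tested, 0 had adjusted p under 0.05 (limma), as was the case for all 5794 genes, and 0 did so in the authors' deposited table. At unadjusted p under 0.05 there was 1 member, Epha8, against 0.311% of all genes. The member median was −0.03 on the log2 scale, as it was over all genes. Epha8 read 0.130 and 0.0924 in wild type and 0.0336 and 0.0371 in knockout, a log2 change of −1.64 ± 0.41 (limma unadjusted p = 0.00997).

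The largest positive synthesis changes were those of Pcdhb10 (1.06 ± 0.45), Cdh18 (0.93 ± 0.40) and Pcdhb19 (0.80 ± 0.58). The other large negative ones were Efna2 (−0.91 ± 0.65) and Cdh22 (−0.63 ± 0.56). None of these 5 passed even the unadjusted threshold. By the mean of the log2 rates over the tested members, Efnb2, Lrrtm1 and Lrrn3 had the highest wild-type synthesis rates and Cdh24, Epha8 and Pcdhb9 the lowest. Whether rates are scaled to transcript length is not given in the sources used here, so these levels are not compared further.

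Where degradation rose and synthesis did not pass, the ratio of the rates was lower. Synthesis divided by degradation for Sema6c gave 8.13 in both wild-type libraries, and 0.383 and 0.246 in knockout. Epha8 gave 3.91 in both wild-type libraries, and 0.0558 and 0.0616 in knockout. The members' median change of this ratio was −0.76 on the log2 scale, against −0.64 for all genes. The ratio was lower for 48 of 69 members and for 3858 of 5704 genes. This ratio shares its inputs with the degradation rates and is no separate evidence.

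Processing rates leaned lower without a call. Of 54 members tested 0 passed (limma, and 0 in the authors' deposited table), and 8 had unadjusted p under 0.05, against 15.4% of all genes. The median log2 change was −0.53, against −0.36 for all genes, and 44 of 54 members lay below 0, as did 3561 of 5082 genes. After library centring the median was −0.19, against −0.01 for all genes. With labelling time as a block 12 members passed, against 25.6% of all genes (318 higher and 982 lower). Higher were Sema6c and Unc50. Lower were Epha8, Pcdh11x, Unc5c, Lrrn1, Sema5a, Sema4f, Nlgn3, Cntn1, Pcdh7 and Epha4. With block and centring together 4 passed: Sema6c, Unc50 and Plxnb1 higher and Epha8 lower. In that fit 363 of all 5082 genes tested were higher and 325 lower.

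Sema6c and Epha8, the members with the largest degradation changes, lay at opposite ends for processing. Sema6c had processing rates of 2.36 and 1.64 in wild type and 18.6 and 13.6 in knockout, a log2 change of 3.02 ± 0.45 (limma adjusted p = 0.102, and 0.00789 with the block). Epha8 had 10.1 and 7.14 in wild type and 1.26 and 1.43 in knockout, a log2 change of −2.66 ± 0.43 (limma adjusted p = 0.102, and 0.00952 with the block). Neither gene's groups overlapped. Pcdh11x, an X-linked protocadherin, had 15.7 and 8.39 in wild type and 5.41 and 3.53 in knockout. Sema5a, whose degradation rates were lower in knockout, read 20.8 and 28.1 in wild type and 9.10 and 11.98 in knockout for processing. By the mean of the log2 rates over the tested members, Plxna4 had one of the 3 highest wild-type processing rates, 27.8 and 32.4, and Lrrtm1 one of the 3 lowest, 1.49 and 1.58.

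**Figure D4:**
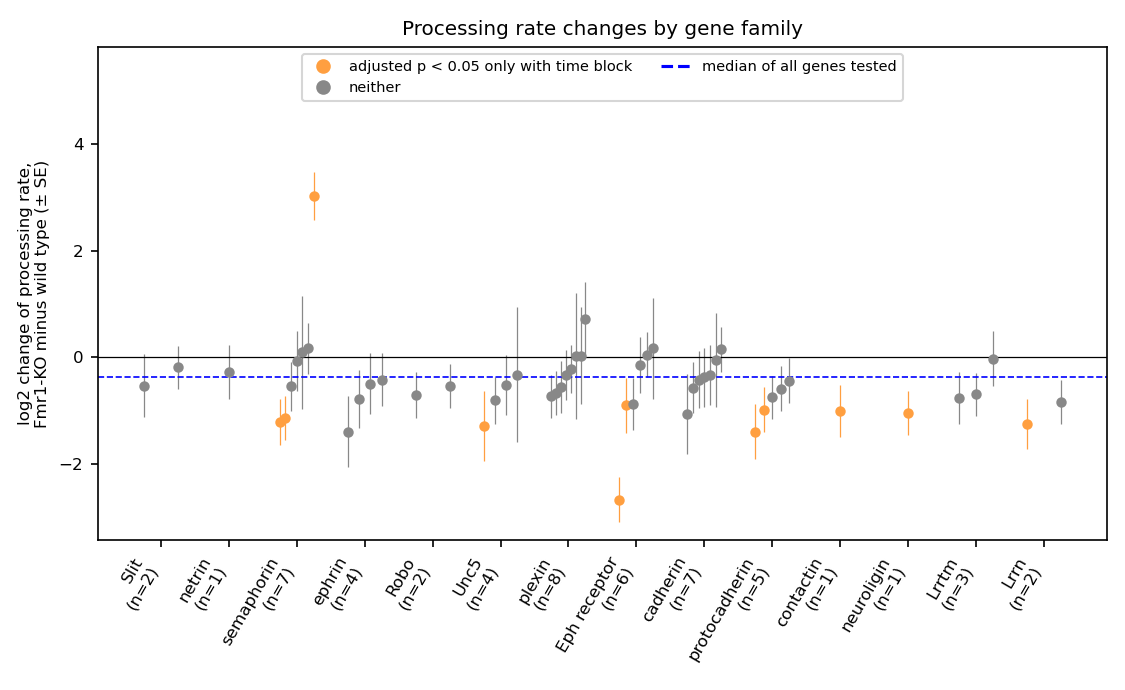
Log2 change of the processing rate (y axis, knockout minus wild type, with SE) for the tested members by family, Unc50 left out. Orange points passed at adjusted p 0.05 with labelling time as a block, grey points did not, and the dashed line is the median of all genes tested, −0.36. Sema6c is the highest point and Epha8 the lowest.

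The tested members had a long median gene span, and base composition varied with their degradation changes. The median span of the 69 tested members was 69.0 kb, against 29.8 kb over tested genes. It was 46.3 kb for the 21 that rose and 100.8 kb for the 48 others. The single-exon Pcdhb genes are short, with 7138 bp for Pcdhb19 as the longest. The 21 that rose had a median transcript GC content of 54.6% and the 48 others one of 47.5%. Across the 69 members, transcript GC content and log2 degradation change had a Spearman rho of 0.537, and across 5556 genes one of 0.310. With the rates themselves, the members' rho was −0.439 in wild type and 0.282 in knockout. Across the 5556 genes these were −0.2975 and 0.0924. The genes share the 4 libraries and are not independent points, and the part of GC content in the result was not tested. Members with a Pumilio element had a median log2 change of 0.53 (38 genes) and those without it 1.40 (31 genes). Over all genes these medians were 0.37 and 0.77. Epha8, Sema6b, Cntn2, Plxnc1 and Robo1, whose sites are printed above, hold the element and rose, as did other members. Efnb2, printed there too, holds it and did not pass. Longer 3′ UTRs held the element more often, and 3′ UTR length had a rho of −0.372 with the change across the 69 members. The part of 3′ UTR length in these medians was not tested.

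**Figure D5:**
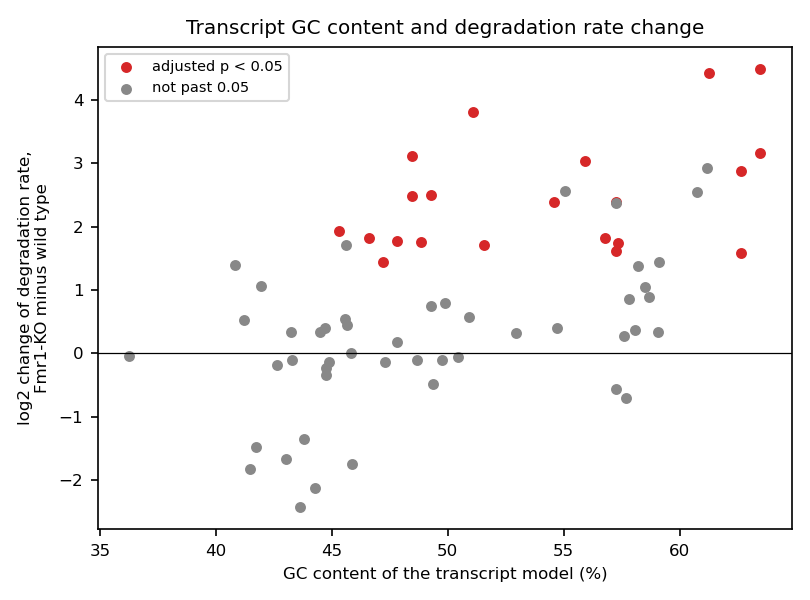
GC content of the transcript model (x axis, %) and log2 change of the degradation rate (y axis, knockout minus wild type) for the 69 tested members, 1 point per gene. Red points are the 21 with adjusted p under 0.05, and the lowest changes lie below 47.5% GC.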

How the data were processed

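Per the labels' protocols, labelled RNA was coupled to biotin and pulled down, with fly and yeast RNA added as spike-ins at 10% by weight each. The submitters' processing notes list the builds mm10, dm6 and sacCer3 and the tools cutadapt, Bowtie2, TopHat2, HISAT2 and limma. The authors deposited synthesis, processing and degradation rates (other linear values, named for INSPEcT per the labels). Their time unit, any length scaling, the use of the spike-ins and strand in counting are not given in the sources used here, and depth is unknown. The authors also deposited limma tables with log2 fold changes, p-values and score columns, per the file headers.

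Rates above 0 in all 4 labelled libraries were taken to log2 without a pseudocount. The genotypes were compared by limma 3.58.1 in R 4.3.3 (two-sided, Benjamini-Hochberg over all genes tested, threshold 0.05). The code was tested on simulated data. Labelling time pairs the libraries per the labels: their 60 minus 20 min differences had a Spearman rho across genes of 0.652 for degradation, 0.735 for synthesis and 0.735 for processing between genotypes. Alternatives were a block, centring, quantile normalization, a filter on low rates, a pseudocount, a trend, a threshold of 0.01, the authors' table and leaving out each library.

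Named members were the 8 largest calls, the 3 largest changes either way, the 3 highest and 3 lowest wild-type rates, members listed in 1 genotype alone, and their ligand, receptor or family partners; others were chosen after their values were seen. The members and lists were chosen with earlier results of these data known. GENCODE M21 models (GRCm38) were matched by symbol for 123 of 124 members. A 3′ UTR ran from the stop codon to the transcript end in the model with the longest coding sequence.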

Additional observations from a re-analysis of the deposited data

Results flagged for a closer look

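The log2 difference, knockout minus wild type, had the same sign at 20 and 60 min of labelling for 60 of 69 members tested for degradation, 46 of 76 for synthesis and 44 of 54 for processing. With 1 library per genotype and time, the difference between times was not tested. Values below are for 20 and then 60 min, for the other 9 members in degradation and for the named members in synthesis.

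Degradation differences were 0.878 and −0.152 for Sema4c, 1.13 and −0.449 for Lrrtm3, and 1.03 and −0.362 for Ephb3. Slit2 had 0.324 and −0.550, and Plxna2 0.0211 and −0.241. Cdh11 had 0.0445 and −0.336. Among non-clustered protocadherins, Pcdh7 had 0.135 and −0.117, Pcdh9 0.0122 and −0.379, and Pcdh11x −0.237 and 0.153.

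Synthesis differences were −1.99 and 0.17 for Efna2, and 0.0165 and −0.131 for Lrrn3. Cdh24 had −0.971 and 0.990, and Pcdhb9 0.555 and −0.0451.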

How the results depend on the processing

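Of 21 degradation calls, 2 were left after library centring, 10 after quantile normalization and 0 at a threshold of 0.01. Leaving out 1 library gave 0 to 16 calls; the group left with 1 library was assumed to vary like the other. The median degradation change, 0.75, was −0.11 after centring, with and without the block, beside −0.20 over all genes. It was 0.16 after quantile normalization, 0.46 with a pseudocount and 0.56 in the authors' table, and 0.55 to 0.94 without 1 library. The synthesis median, −0.03, was −0.17 with low rates left out and ran from −0.15 to 0.10 without 1 library. The processing calls, 0, became 12 with the replicate block and 4 with block and centring. Their median, −0.53, was −0.19 after centring, with and without the block, −0.13 after quantile normalization, and −0.72 to −0.55 without 1 library.

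Lrrn3 degradation turned to −0.53 after centring (with and without the block) and −0.42 after quantile normalization. Lrrn3 synthesis turned to 0.076 and Cdh24 synthesis to −0.022 after quantile normalization, and Cdh24 synthesis to −0.070 with a pseudocount and −0.47 in the authors' table. Leaving out the wild-type 60 min or the knockout 20 min library also turned some signs. Without 1 library, Cdh11 degradation ran from −0.67 to 0.38 and Efnb2 degradation from −0.41 to 0.28. Synthesis ran from −0.63 to 0.12 for Efnb2, from −0.25 to 0.14 for Lrrn3 and from −1.04 to 1.06 for Cdh24. Plxnb1 processing ran from −0.014 to 1.44. The cause of these changes was not tested. Of 215 settings of the 17 named genes for degradation, 157 kept direction and side of the threshold, 34 lost the call, 17 gained one and 7 turned direction. For synthesis 126 of 136 kept both and 10 turned, and for processing 116 of 127 kept both, with 10 gained and 1 turned. With 2 libraries per genotype and unknown depth, small differences were not detectable.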
